A study of Mus musculus with 16 samples.

Results

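The small nucleolar and spliceosomal RNAs of olfactory bulb microglia were taken as every row of the count table whose symbol starts with Snord, Snora, Scarna or Rnu and that reached 5 counts in 8 or more of the 16 libraries. This rule found 45 members among the 18227 genes that passed the same filter, out of 57010 rows in the table. Of the 182 rows with these prefixes, 137 failed the filter, and 93 of them were at 0 in every library. A count of 0 need not mean an absent RNA, since reads that fit several genes may have been left out by the counting. The members comprise 26 of 115 Snord rows, 10 of 42 Snora rows, 4 of 10 Scarna rows and 5 of 15 Rnu rows. Snord59a, with 75 counts over all libraries, was just inside the filter with 8 libraries at 5 counts or more, and Snora20, with 74 counts, was just outside with 7.

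The libraries came from CD11b-selected cells of the olfactory bulb at 2 months of age. WT animals were C57BL/6J mice, and KI animals were APP-NL-G-F mice, a knock-in of a humanised App gene with pathogenic changes from familial Alzheimer's disease, kept on the same background. There were 4 libraries for each sex of each genotype, each a total RNA library depleted of ribosomal RNA. CD11b is shared by other myeloid cells, and nothing in the labels says that each library is a different mouse, so p-values measure only the spread between these libraries.

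Box C/D small nucleolar RNAs (symbols with Snord) guide methylation of the ribose in ribosomal RNA, and box H/ACA RNAs (Snora) guide conversion of uridine to pseudouridine. Small Cajal body RNAs (Scarna) do the same for spliceosomal RNAs. The spliceosomal RNAs (Rnu) are the RNA cores of the particles that remove introns, with U1, U2 and U5 in the major spliceosome, U11 and U12 in the minor spliceosome, which handles a small class of introns. Most mammalian snoRNAs are cut out of the introns of other genes, whereas spliceosomal RNAs and a few snoRNAs, among them U8 (Snord118) and U13 (Snord13), are transcribed from promoters of their own. In such promoters an octamer element binds the factor OCT1 far from the start, and a proximal element closer to it recruits the SNAPc complex.

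Sequences of members that differed most between the genotypes, with U12 added because it shares the promoter letters described further on, are shown first, read 5′ to 3′ from GRCm39. In box C/D RNAs, capitals mark the first TGATGA (C box) and the last CTGA (D box). In spliceosomal RNAs they mark ATTTTT, the core of the site bound by the ring of Sm proteins. In Snora31 they mark the ACA that stands 3 bases before the end. Snord118 lies at chr11:68964253-68964387 (plus strand), Rnu11 at chr4:131997391-131997524 (minus), Rnu2-10 at chr11:101549064-101549254 (plus), Rnu12 at chr15:83033845-83033995 (plus), Snora31 at chr14:76085345-76085474 (plus) and Snord43 at chr15:79967048-79967155 (minus).
Snord118: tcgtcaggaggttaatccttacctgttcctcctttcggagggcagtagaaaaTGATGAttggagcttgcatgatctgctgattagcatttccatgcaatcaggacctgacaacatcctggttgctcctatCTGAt
Rnu11: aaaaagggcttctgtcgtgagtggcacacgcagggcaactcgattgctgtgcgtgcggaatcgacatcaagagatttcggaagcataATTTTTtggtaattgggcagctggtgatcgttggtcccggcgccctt
Rnu2-10: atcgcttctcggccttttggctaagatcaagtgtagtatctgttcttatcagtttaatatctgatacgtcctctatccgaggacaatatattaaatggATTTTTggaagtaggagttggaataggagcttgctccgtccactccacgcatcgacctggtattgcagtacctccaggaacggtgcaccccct
Rnu12: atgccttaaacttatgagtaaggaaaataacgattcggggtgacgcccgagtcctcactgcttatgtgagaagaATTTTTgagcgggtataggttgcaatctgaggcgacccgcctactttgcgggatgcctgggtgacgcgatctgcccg
Snora31: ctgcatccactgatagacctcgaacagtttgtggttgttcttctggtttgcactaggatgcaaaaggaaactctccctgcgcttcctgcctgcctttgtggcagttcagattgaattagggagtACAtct
Snord43: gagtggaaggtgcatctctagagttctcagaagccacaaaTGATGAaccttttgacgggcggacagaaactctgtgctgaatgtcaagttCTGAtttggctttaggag

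Library totals ran from 9052932 to 18117286 counts, and the members took from 0.0626% to 0.113% of them. Levels are given in CPM, counts put on a common library size after TMM scaling (trimmed mean of M-values), and 3 counts, the limit that a count of 0 allows, correspond to 0.166 to 0.331 CPM. App, the gene that was replaced, was at 419.2 ± 34.4 CPM in WT and 399.1 ± 12.7 CPM in KI libraries (SD, n = 8 each; FDR 0.4), so its level does not check the labels. The 8 microglial markers summed to 18320 to 21890 CPM in WT and 18260 to 21350 CPM in KI libraries. The 10 neuronal markers summed to 673.4 to 1140 CPM in WT and 878.9 to 1703 CPM in KI libraries. Of them 2 were called higher and 0 lower, beside 4.33% and 4.3% of all genes tested. At an FDR below 0.1 alone 6 were higher and 0 lower, beside 6.95% and 7.82%. The other marker lists, of astrocytes, oligodendrocytes, endothelial cells, border macrophages, neutrophils, monocytes and red blood cells, held 1 called gene, an oligodendrocyte marker that was higher. In bulk samples, fewer cells of a type and less RNA per cell cannot be told apart.

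A pair of libraries stood apart in the members, WT male replicate 3 and KI female replicate 3. They were the 2 highest of the 16 libraries in 27 members, 19 Snord, 6 Snora and 2 Scarna, and in none of the Rnu. Snord61, in an exon of Rbmx, had 23.3 and 17.2 CPM there, and 0.578 to 6.81 CPM in the other 14 libraries. Snord34, in an intron of Rpl13a, had 53.0 and 36.4 CPM against 6.36 to 23.0 CPM. The same libraries were also the highest in Rny1 and Rny3, the RNAs of the Ro particle, with 54.2 and 44.4 CPM of Rny1 against 7.80 to 24.0 CPM elsewhere. Rn7sk, a structured RNA with a far higher CPM, was at 6085 and 7603 CPM there, within the 5451 to 9130 CPM of the other libraries. Since 1 of the libraries is WT and the other KI, and they differ in sex, the members that lose or gain a call without both are named.

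**Figure D1:**
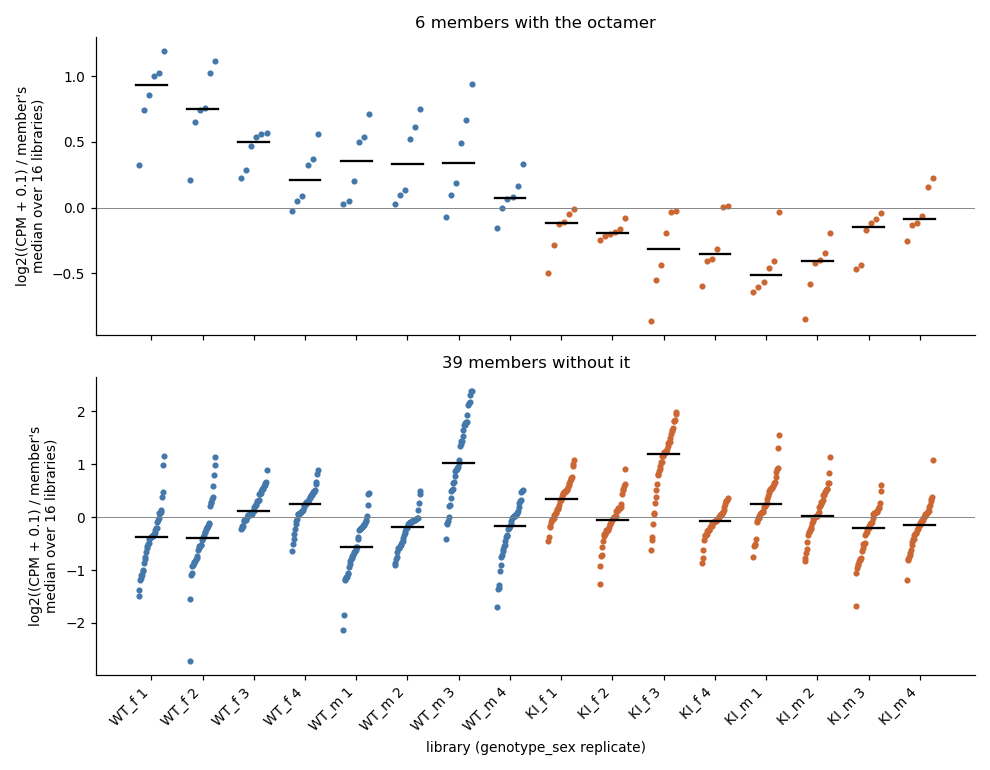
Level of each member in each library, as log2 of its CPM plus 0.1 over its own median across the 16 libraries, for the 6 members with the octamer ATGCAAAT before the start (top) and the 39 without (bottom); points are members, sorted within a library, and bars are medians. The octamer was chosen after sequences and values had been seen, so the separation in the top panel is no test. There every WT median lies above every KI median. In the bottom panel WT_m 3 and KI_f 3 stand above the other 14, with medians of 1.02 and 1.20.

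The first question was which of these RNAs differ between KI and WT microglia over both sexes, with sex as an additive term in edgeR's quasi-likelihood test and FDR values adjusted over all 18227 genes. A member was called at an FDR below 0.1 with a log2 fold change beyond 0.5 in either direction. By this rule 6 of 45 members were lower in KI microglia and 0 were higher: Snord118, Rnu11, Snora31, Rnu5g, Rnu2-10 and Snord43. Over all genes tested 4.3% were called lower and 4.33% higher. At the FDR alone, 9 members were lower and 0 higher, with Rnu12, Rnu1a1 and Snord13 added, beside 7.82% and 6.95% of all genes. By the FDR alone all 5 Rnu members were lower, and so were 3 of 26 Snord, 1 of 10 Snora and 0 of 4 Scarna members. Without both libraries that stand apart, 4 of the 5 Rnu members passed the FDR, and Rnu1a1 did not (log2 fold change -0.43, edgeR FDR 0.124).

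By class, the median log2 fold change was -0.68 in Rnu, 0.10 in Snord, 0.26 in Snora and 0.18 in Scarna members, against -0.001 over all genes tested. Over all members 29 were above 0 and 16 below, and their log2 fold changes ran from -1.01 to 0.78.

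**Figure D2:**
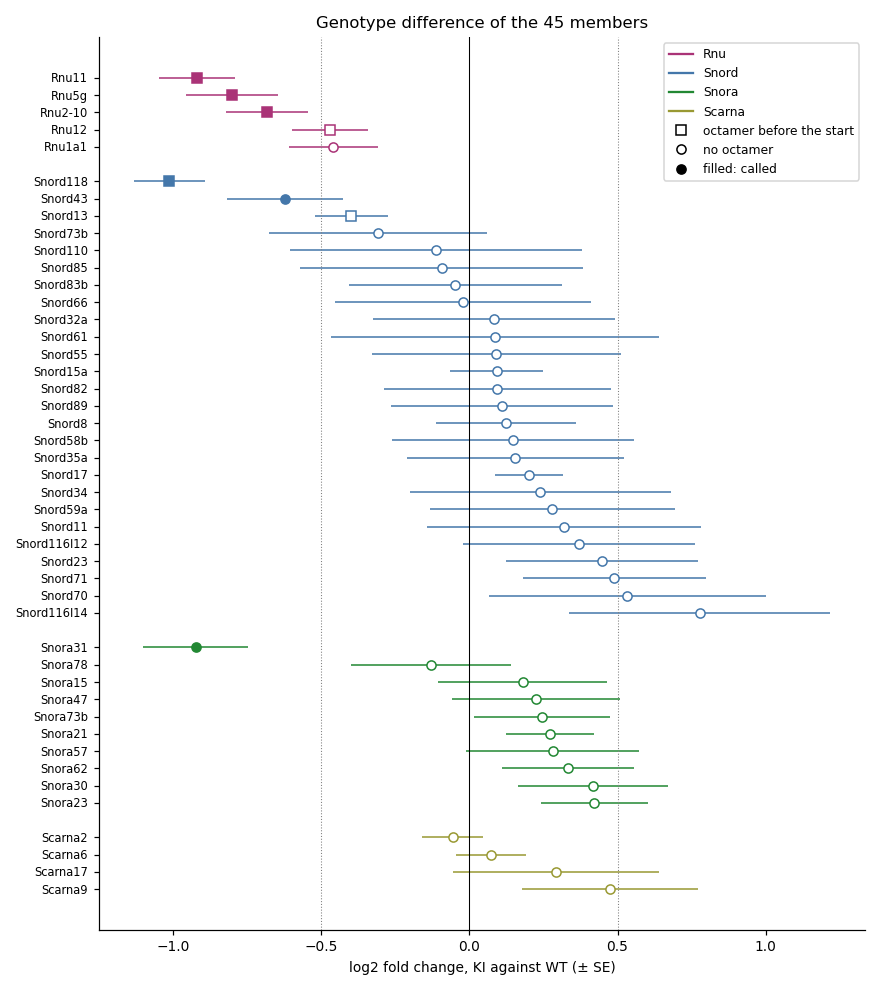
Log2 fold change of KI against WT for the 45 members with its standard error, by class and sorted within it; filled symbols are called members, squares are members with the octamer before the start, and dotted lines mark 0.5 in either direction. All 5 Rnu members, Snord118, Snord43, Snord13 and Snora31 lie to the left of 0 by more than 2 standard errors, and no member does so to the right except Snora23.

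Among the spliceosomal RNAs, U11 and U5 differed most. Rnu11, the U11 RNA that recognises the start of minor introns, ranged from 35.2 to 65.4 CPM in WT libraries with a median of 43.9, and from 17.8 to 29.2 CPM in KI libraries with a median of 24.3. No KI library reached the lowest WT library. Its log2 fold change was -0.92 ± 0.128 (SE; edgeR FDR 0.000414), a level 47.2% lower, and the exact permutation test gave p = 0.000408, the smallest that 4900 two-sided splits of genotype within sex allow. On the opposite strand of Rnu11 lies an exon of Gm28872, at a mean of 0.855 CPM, which was itself called lower with a log2 fold change of -1.34; the strand setting of the counting is not given in the sources used here, so reads of the pair cannot be told apart.

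Rnu5g, a U5 RNA that holds the ends of the exons during splicing, ranged from 10.97 to 25.3 CPM in WT (median 15.4) and from 7.40 CPM upward in KI libraries (median 9.69). Of the 8 KI libraries, 7 lay below every WT library, and the highest, female replicate 4, lay just above the lowest WT library. The log2 fold change was -0.80 ± 0.155 (SE; edgeR FDR 0.00334; exact permutation p = 0.000408). WT female replicates 1 and 2, at 25.3 and 23.9 CPM, were well above the other WT libraries, which reached 16.8 CPM.

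Rnu2-10, a U2 RNA that pairs with the branch point, ranged from 10.5 to 20.1 CPM in WT (median 14.9) and from 6.03 to 11.2 CPM in KI libraries (median 9.86). The log2 fold change was -0.68 ± 0.139 (SE; edgeR FDR 0.00469; exact permutation p = 0.000816), and 5 KI libraries lay below every WT library.

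Rnu12 and Rnu1a1 passed the FDR but stayed within a log2 fold change of 0.5. Rnu12, the U12 RNA that pairs with the branch point of minor introns, was at 10.4 ± 2.48 CPM in WT and 7.41 ± 1.16 CPM in KI libraries (SD, n = 8 each), with a log2 fold change of -0.47 ± 0.127 (SE; edgeR FDR 0.0261). Rnu1a1, a U1 RNA that recognises the start of major introns, was at 5.75 ± 1.09 and 4.19 ± 0.933 CPM, a log2 fold change of -0.46 ± 0.15 (edgeR FDR 0.0618). With 1 library left out Rnu12 passed the FDR in all 16 fits and Rnu1a1 in 8, missing it without WT male replicate 2, WT female replicate 1 or 2, KI male replicate 1, 2 or 4, or KI female replicate 3 or 4 (FDR up to 0.134). In both, 4 KI libraries lay below every WT library and the ranges of the genotypes overlapped. The remaining Rnu rows held few counts: Rnu6-ps1 had 44 over all libraries, Rnu6 had 4, and Rnu7 and Rnu4atac had 0. Rnu7 lies within an exon of Grcc10 and Rnu4atac within an exon of 2900060B14Rik, where reads may have been left out by the counting. Such counts therefore need not mean that the RNA is absent.

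Snord118 had the smallest p of all members. It is U8, a box C/D RNA needed to process the RNAs of the large ribosomal subunit, and in people variants of its gene cause a leukoencephalopathy with calcifications and cysts. WT libraries ranged from 8.23 to 16.1 CPM (median 12.7) and KI libraries from 5.21 to 7.52 CPM (median 6.36), with no overlap. The log2 fold change was -1.01 ± 0.12 (SE; edgeR FDR 0.000155; exact permutation p = 0.000408), a level 50.4% lower. Of all genes tested, 1.15% had every KI library below every WT library, and among the members Snord118 and Rnu11 did.

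Snord13, described because of its promoter after its values were seen, is U13, which pairs with the RNA of the small ribosomal subunit to guide its acetylation. It was at 6.25 ± 0.777 CPM in WT and 4.72 ± 0.9 CPM in KI libraries (SD, n = 8 each), with a log2 fold change of -0.40 ± 0.124 (SE; edgeR FDR 0.0507; exact permutation p = 0.00408). Of the 8 KI libraries, 7 lay below every WT library, and KI male replicate 4, at 6.11 CPM, lay among the WT values. The FDR rose above 0.1 without WT female replicate 1, KI male replicate 1 or 2, or KI female replicate 4 (up to 0.114), and without both libraries that stand apart (0.113).

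The other members called lower lie in introns of genes for abundant messenger RNAs. Snora31, an H/ACA RNA in an intron of Tpt1, ranged from 2.998 to 7.94 CPM in WT (median 5.30) and from 1.85 to 4.01 CPM in KI libraries (median 2.63). The 4 WT female libraries, at 6.24 to 7.94 CPM, lay above every other library. Its log2 fold change was -0.92 ± 0.176 (SE; edgeR FDR 0.00295; exact permutation p = 0.00122).

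Snord43, a box C/D RNA in an intron of the ribosomal protein gene Rpl3, ranged from 1.28 to 3.06 CPM in WT and from 0.756 to 1.80 CPM in KI libraries, on 9 to 49 counts a library. The log2 fold change was -0.62 ± 0.196 (SE; edgeR FDR 0.0533; exact permutation p = 0.00449). The reference annotation lists this row as a miRNA gene. Its call was lost in 4 of the 16 fits made with 1 library removed (WT female replicate 1, KI female replicates 1 and 3, and KI male replicate 2), with FDR values up to 0.167 over all settings. Snord43 was called in 22 of the 28 settings run, and was also lost with no filter and without both libraries that stand apart. The other 5 called members were called in each of the 28 settings.

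**Figure D3:**
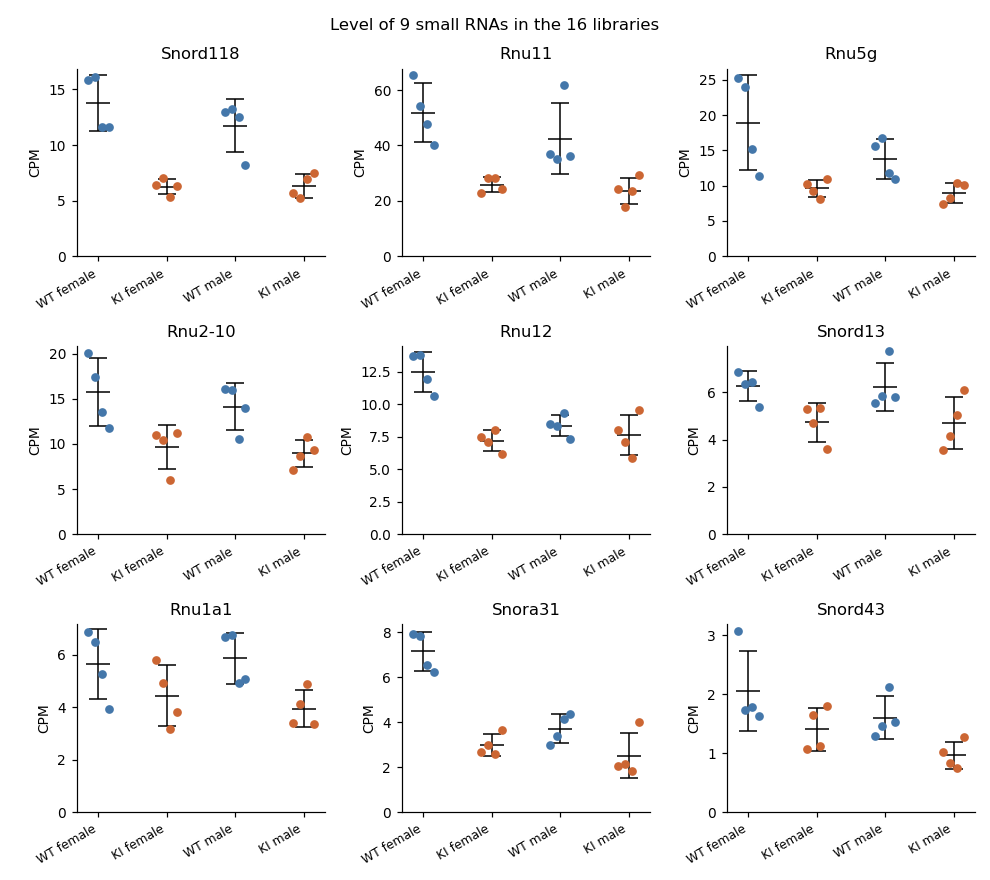
CPM of the 6 called members and of Rnu12, Snord13 and Rnu1a1 in each of the 16 libraries, by genotype and sex; points are libraries, ordered by replicate number, and bars are the mean and SD of 4. KI libraries lie below all WT libraries in the panels of Snord118 and Rnu11, and WT female libraries stand highest in that of Snora31.

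The 3 members with the highest CPM, a scale not corrected for length, were not called, and Rnu11, described above, was next in CPM. Snord17, a box C/D RNA in an intron of Snx5, had the highest CPM, at 343.3 ± 59.7 CPM in WT and 394.5 ± 63.5 CPM in KI libraries (SD, n = 8 each), with a log2 fold change of 0.20 ± 0.115 (SE; edgeR FDR 0.308). Scarna2, which guides methylation of the U2 RNA, was at 89.2 ± 18.2 and 85.6 ± 11.3 CPM, a log2 fold change of -0.06 (FDR 0.805) that turned to 0.05 without WT male replicate 3. Snord15a, in an intron of Rps3, was at 66.4 ± 17.9 and 70.9 ± 16.4 CPM (FDR 0.784). Below Rnu11, Snora73b, an H/ACA RNA known as U17 that takes part in cleavage of the ribosomal RNA precursor, was at 25.3 ± 10 and 29.9 ± 10.6 CPM (FDR 0.574). Snora21, which lies within an annotated exon of Rpl23, was at 17.3 ± 4.03 and 20.9 ± 4.67 CPM (FDR 0.283). Snord82, in an intron of the nucleolin gene Ncl, was at 18.4 ± 13.4 and 19.3 ± 10.6 CPM (FDR 0.924). Of the other Scarna members, Scarna6 had a log2 fold change of 0.07 ± 0.118 (FDR 0.77), Scarna17 of 0.29 ± 0.347 (FDR 0.673) and Scarna9 of 0.47 ± 0.297 (FDR 0.359).

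The SE differed widely among members that are not called. It was 0.115 for Snord17 and 0.383 for Snord82, whose WT libraries ran from 9.83 to 50.7 CPM. A difference of the size seen in Snord118 would exceed 2 SE in either, but that alone does not meet the rule for a call. A log2 fold change of 0.5 was not detectable in Snord82 with this spread.

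Without both WT male replicate 3 and KI female replicate 3, 5 of 44 members were called, all lower, Snord43 being the one lost with a log2 fold change of -0.51 (FDR 0.167). Snord118 was then at -0.96 ± 0.131 (SE; edgeR FDR 0.00114) and Rnu11 at -0.83 ± 0.123 (FDR 0.00197). Without WT male replicate 3 alone, 10 members were called, the 6 above and 4 that were higher, Snord70, Snord71, Snord116l14 and Snora62. None of those 4 was called without both libraries, with FDR values from 0.137 to 0.215.

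Snord116l14 and Snord116l12 are the only members from the imprinted clusters of brain snoRNAs, and lie in introns of Snhg14 on chromosome 7, the long RNA of the Prader-Willi region that is expressed mainly in neurons. Snord116l14 was at 0.576 ± 0.449 CPM in WT and 0.978 ± 0.638 CPM in KI libraries, a log2 fold change of 0.78 ± 0.441 (SE; edgeR FDR 0.303), and Snord116l12 at 4.10 ± 3.56 and 5.03 ± 2.43 CPM, of 0.37 ± 0.392 (FDR 0.628). Snhg14 was at 0.60 ± 0.247 (FDR 0.138). The sum of the neuronal markers had a median of 893.5 CPM in WT and 1273 CPM in KI libraries, and its part in these values was not tested.

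The second question was whether the differences were seen in each sex. In females 6 members were called lower and 0 higher, beside 4.33% and 2.82% of all genes: Rnu11 (log2 fold change -1.01, edgeR FDR 0.00301), Rnu12 (-0.80, FDR 0.00286), Rnu5g (-0.97, FDR 0.0112), Rnu2-10 (-0.70, FDR 0.0477), Snord118 (-1.13, FDR 0.000917) and Snora31 (-1.26, FDR 0.00216). The female call of Rnu2-10 was lost without WT female replicate 1 or 2 or KI female replicate 3, with FDR values up to 0.212. It was also lost without both libraries that stand apart (-0.53, FDR 0.117), which left 5 female calls. In males 1 member was called lower, Snord118 (-0.89, FDR 0.0587), and 1 higher, Snora23 (0.97, FDR 0.0637), beside 0.165% and 0.0878% of all genes. Both male calls were lost without WT male replicate 1, 2 or 3 or KI male replicate 1 or 2, and without WT male replicate 4 Snora23 was lost. Without both libraries that stand apart neither was called (FDR 0.148 for Snord118 and 0.132 for Snora23). Rnu11 in males had a log2 fold change of -0.83 (FDR 0.101), Rnu2-10 of -0.67 (FDR 0.191) and Rnu5g of -0.62 (FDR 0.272). All 5 Rnu members and Snord118 were below 0 in each sex.

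No member was called in the interaction of genotype and sex by edgeR, against 0.0274% of all genes. At an unadjusted edgeR p below 0.05 there were 6 of 45 members, beside 1083 of 18227 genes. DESeq2 called 1, Snora23, and limma voom 0. Snora23, an H/ACA RNA in an intron of Ipo7, was at 2.54 to 3.92 CPM in the 4 WT male and 5.54 to 7.61 CPM in the 4 KI male libraries, while the females overlapped, at 4.64 to 7.98 CPM in WT and 4.64 to 6.29 CPM in KI. Its interaction had a log2 value of 1.06 ± 0.268 (SE; edgeR FDR 0.256). Rnu12 had a log2 fold change of -0.80 in females and -0.12 in males, and its interaction missed the threshold too (0.67 ± 0.205, FDR 0.431). Between males and females no member was called by edgeR, DESeq2 or limma voom, against 0.0604% of all genes with edgeR. At an unadjusted edgeR p below 0.05 there were 2 of 45 members, beside 1195 of 18227 genes. Snora31 had the smaller p, with a log2 difference of males against females of -0.62 (edgeR FDR 0.607), and it was called when KI male replicate 4 was left out.

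Members without the octamer ATGCAAAT before their start (described further on) had median log2 fold changes on opposite sides of 0 in the sexes, at 0.51 in females and -0.10 in males. Without both libraries that stand apart these were 0.09 and 0.37. The 6 members with the octamer had medians of -0.88 in females and -0.65 in males, and of -0.88 and -0.65 without both libraries. The octamer was chosen after values had been seen, so these medians describe the split and do not test it.

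Members that lie in other genes were compared with those genes. Of the 45 members, 36 lie on the same strand within 31 genes that were tested, 25 in introns and 11 touching an annotated exon. Reads in such an exon cannot be told apart from those of the host, and may have been left out by the counting. The host genes had a median log2 fold change of -0.05, and 1 was called. In each library the log2 CPM of the host was subtracted from that of the member, and KI and WT were compared by exact permutation of genotype within sex. Of 36 pairs 5 had p below 0.05, unadjusted. Snord118 differed from Tmem107 by -0.88 (p = 0.00898, exact permutation), Snora31 from Tpt1 by -0.83 (p = 0.00286) and Snord43 from Rpl3 by -0.55 (p = 0.0106). In each of the 3 the host was close to 0, with log2 fold changes of -0.11 for Tmem107, -0.08 for Tpt1 and -0.02 for Rpl3. All 3 members were already called lower in these libraries, so these p-values largely repeat the members' own differences. Snord118 lies within Tmem107 but, as described above, is transcribed from its own promoter. Tmem107 was measured on few counts, at 0.757 CPM in WT, so its log2 fold change has an SE of 0.267, wider than for Tpt1 (0.0494) and Rpl3 (0.0491). Snora78 stood 0.996 above Snhg9 (exact permutation p = 0.0127), which was itself called lower at -1.27 (edgeR FDR 0.00528) while Snora78 was at -0.13 (FDR 0.828). Snora78 lies within an annotated exon of Snhg9, so reads of this pair cannot be told apart. Snhg9 also held few counts, at 1.43 CPM in WT and 0.578 CPM in KI libraries. Snora23 stood 0.45 above Ipo7 (p = 0.049, exact permutation).

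**Figure D4:**
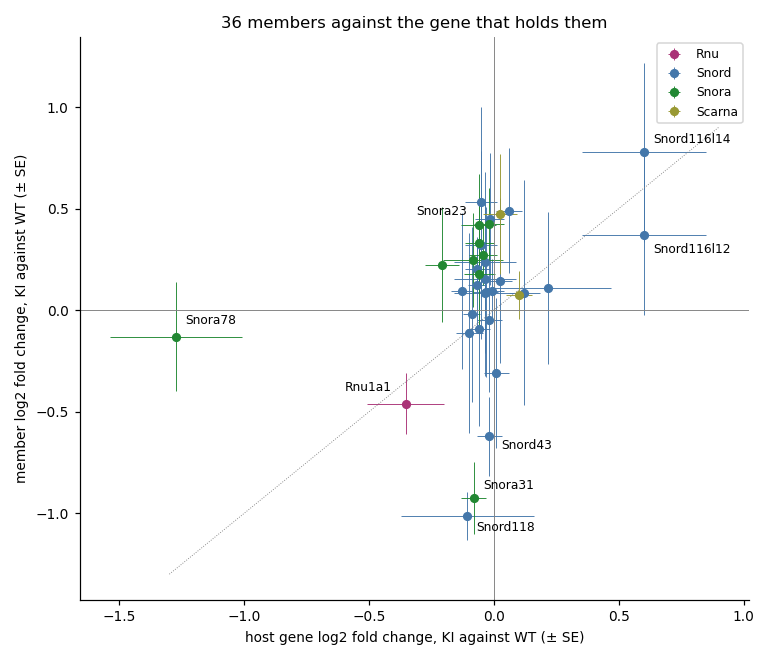
Log2 fold change of KI against WT for 36 members and for the gene that holds each, with standard errors; the dotted line marks equal values. Snhg9 and Snhg14 are the hosts farthest from 0, and Snord118, Snora31 and Snord43 lie far below the line.

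Spliceosomal RNAs come in many near-identical copies, and rows outside the prefixes that are at least 90% identical to a member were read beside it. Reads that match several such rows may have been left out by the counting or split between them. The value of a single row, and of a sum of rows, is therefore uncertain. Rnu5g has 5 such copies among the tested genes, from 91.4% identity, all with log2 fold changes below 0. Of these 4 were called lower, beside 4.3% of all genes tested, with Gm23287 at -1.996 ± 0.252 (SE; edgeR FDR 0.000225). In Gm23287, Gm25099 and Gm25313 no KI library reached the lowest WT library, as in 1.15% of all genes tested. These rows are near copies of Rnu5g and are not separate cases. Rnu2-10 has 11 copies, of which 3 are identical to it over its whole length. All 11 were below 0 and 4 were called lower (36.4%, beside 4.3% of all genes), Gm23849 the furthest by FDR at -1.02 ± 0.177 (FDR 0.00148). Gm25939, the most abundant U2 row at 21.6 CPM in WT, was at -0.26 (FDR 0.416).

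Rnu1a1 has 7 copies, and these did not share a direction, with 3 below 0, of which 1 was called lower, and 4 above. Gm22513, which differs from Rnu1a1 in 1 base and held far more counts, was at 82.4 ± 29.3 CPM in WT and 108.2 ± 28.9 CPM in KI libraries, a log2 fold change of 0.40 ± 0.2 (SE; edgeR FDR 0.228), while Gm24924, next in abundance, was at -0.38 (FDR 0.134). When copies were summed with their member, Rnu5g had a log2 fold change of -0.79 ± 0.111 (edgeR FDR 0.000444) and Rnu2-10 of -0.54 ± 0.0809 (FDR 0.000605), and both stayed called, whereas Rnu1a1 turned to 0.18 ± 0.165 (FDR 0.551). The direction given for U1 therefore holds for the row Rnu1a1 and not for the sum of the U1 rows. The 10 copies of Snord116l14 were all above 0 and none was called. Of the 116 tested snRNA, snoRNA and scaRNA rows that are no near copy of a member, 2 were called lower (1.72%) and 5 higher (4.31%), against 4.3% and 4.33% of all genes tested. Their median log2 fold change was 0.26, with 92 above 0.

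**Figure D5:**
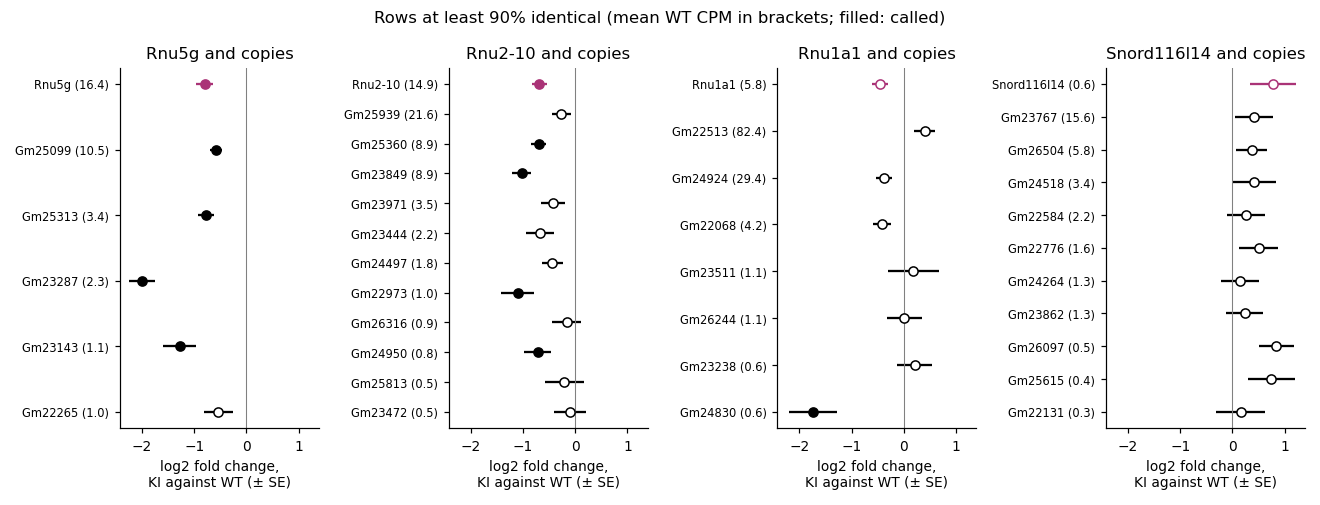
Log2 fold change of KI against WT with its standard error for Rnu5g, Rnu2-10, Rnu1a1 and Snord116l14 (top of each panel) and for rows at least 90% identical to them, sorted by mean WT CPM, which stands in brackets; filled points are called. All U5 and U2 rows lie below 0, and the U1 rows lie on either side.

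The bases before the start of each member were searched for promoter letters. The octamer ATGCAAAT, on either strand, stood within 250 bases before the start of 6 of the 45 members: Rnu11, Rnu12, Rnu2-10, Rnu5g, Snord118 and Snord13. It began between 179 and 248 bases before the start. In RefSeq promoter windows of mouse genes (GRCm38.p6), 1.6% of 32851 held it within the same distance. The same 6 members also held ACCNT, on their own strand, beginning 50 to 65 bases before the start, which occurred in 11 members and in 4.35% of the windows; 0.0822% of windows held both. The letters were chosen after sequences and values had been seen. Of the 6 members with the octamer all 6 were lower at an FDR below 0.1, and 4 were called, with a median log2 fold change of -0.74. Of the 39 members without it, 3 were lower at that FDR (Rnu1a1, Snora31 and Snord43), and the median was 0.16 with 29 above 0. Without both libraries that stand apart, 5 of the 6 passed the FDR, with Snord13 at 0.113, and of those 3 without the octamer Snora31 alone did (Rnu1a1 at 0.124 and Snord43 at 0.167). Of the 11 members with ACCNT, 7 were lower at an FDR below 0.1, the 6 with the octamer and Rnu1a1. Snord34, Snord58b, Snord70 and Snord8 hold ACCNT without the octamer and were above 0, at 0.24, 0.15, 0.53 and 0.12. A match is a description of the letters, and no binding was measured. Small RNAs outside the members, such as Rn7sk, were not compared in this way.

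The 250 bases before 5 of these 6 starts follow, 5′ to 3′ on the member's strand, ending at the base before the start, with the octamer and ACCNT in capitals (GRCm39). They lie at chr11:68964003-68964252 for Snord118, chr4:131997525-131997774 for Rnu11, chr9:65109124-65109373 for Rnu5g, chr11:101548814-101549063 for Rnu2-10 and chr8:31639996-31640245 for Snord13.
Snord118 upstream: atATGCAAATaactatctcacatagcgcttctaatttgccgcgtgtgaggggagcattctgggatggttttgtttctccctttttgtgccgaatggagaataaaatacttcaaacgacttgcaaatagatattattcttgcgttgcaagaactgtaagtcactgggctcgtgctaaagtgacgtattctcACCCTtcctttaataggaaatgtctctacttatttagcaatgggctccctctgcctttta
Rnu11 upstream: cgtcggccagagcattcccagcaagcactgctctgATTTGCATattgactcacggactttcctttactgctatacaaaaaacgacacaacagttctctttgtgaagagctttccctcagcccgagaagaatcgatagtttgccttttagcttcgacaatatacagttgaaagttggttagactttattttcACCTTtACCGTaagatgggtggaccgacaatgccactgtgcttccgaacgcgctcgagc
Rnu5g upstream: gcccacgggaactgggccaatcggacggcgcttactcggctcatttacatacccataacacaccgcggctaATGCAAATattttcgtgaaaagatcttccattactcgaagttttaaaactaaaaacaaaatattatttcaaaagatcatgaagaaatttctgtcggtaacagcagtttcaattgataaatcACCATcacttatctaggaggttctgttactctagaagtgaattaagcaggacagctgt
Rnu2-10 upstream: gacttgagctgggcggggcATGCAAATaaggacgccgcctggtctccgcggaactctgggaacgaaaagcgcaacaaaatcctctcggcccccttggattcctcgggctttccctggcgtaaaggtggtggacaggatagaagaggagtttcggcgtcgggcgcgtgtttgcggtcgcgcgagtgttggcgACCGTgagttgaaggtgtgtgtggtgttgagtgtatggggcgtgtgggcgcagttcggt
Snord13 upstream: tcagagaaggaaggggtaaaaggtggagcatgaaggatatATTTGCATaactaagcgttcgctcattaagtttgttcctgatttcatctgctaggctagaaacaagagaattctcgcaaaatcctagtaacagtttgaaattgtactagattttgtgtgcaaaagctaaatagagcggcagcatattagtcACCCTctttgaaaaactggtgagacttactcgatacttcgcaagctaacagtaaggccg

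The proteins that bind, assemble and transcribe these RNAs were read from a list of 91 genes, of which 90 were tested. None was called by edgeR. At the FDR alone 8 were lower (8.89%) and 0 higher, near the 7.82% of all genes that were lower, and 13 had an unadjusted p below 0.05 (14.4%), a smaller share than the 24.1% of all genes. The list's median log2 fold change was -0.06, against -0.001 over all genes, with 69 genes below 0. Fbl, the methyltransferase of box C/D particles, was at -0.22 ± 0.0664 (SE; edgeR FDR 0.0417). Its partners Nop56 and Nop58 were at -0.10 (FDR 0.282) and -0.05 (FDR 0.684), and Snu13 at -0.23 (FDR 0.0959). Dkc1, the pseudouridine synthase of H/ACA particles, was at -0.08 (FDR 0.486), and Naf1, an assembly factor of those particles, at -0.19 (FDR 0.0693). Of the proteins of the minor spliceosome, Zrsr2 was at -0.34 ± 0.0555 (FDR 0.000967) and Snrnp35 at -0.41 ± 0.0971 (FDR 0.0123), while the 6 listed had a median of -0.002. Snrpa, a U1 protein, was at -0.29 (FDR 0.006), Toe1, which trims snRNA ends, at -0.29 (FDR 0.024) and Sf3b1, a U2 protein, at -0.15 (FDR 0.041). The 11 factors of snRNA gene transcription had a median of -0.003, and none of them passed the FDR.

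Other small structured RNAs were read beside the members. Rn7sk, which holds the elongation factor P-TEFb inactive, was at 7139 ± 1170 CPM in WT and 7567 ± 984 CPM in KI libraries (SD, n = 8 each), with a log2 fold change of 0.09 ± 0.0997 (SE; edgeR FDR 0.669). Of 12 listed RNAs 7 were tested and 0 called by edgeR, with 1 at an unadjusted p below 0.05 (14.3%, beside 24.1% of all genes). Vaultrc5, the RNA of the vault particle, was that one, at 12.6 ± 5.22 and 18.4 ± 5.66 CPM, a log2 fold change of 0.55 ± 0.227 (FDR 0.141).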

How the data were processed

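CD11b-selected olfactory bulb cells were profiled by total RNA-seq after depletion of ribosomal RNA. RNA was purified on columns, and read pairs were aligned by the authors to GRCm39 using STAR, gencode vM32 and a human App sequence. The deposited values are raw counts per gene, whole numbers that were not normalized; the strand setting is not given in the sources used here. Most members are shorter than the inserts of such libraries, and how well short RNAs were captured in each library was not tested.

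Genes that reached 5 counts in 8 or more of 16 libraries were tested in edgeR 4.0.16 (R 4.3.3; TMM, quasi-likelihood, sex as an additive term; a 4-group fit for each sex and the interaction). SE is the absolute log2 fold change over the square root of F. Log2 CPM used a prior count of 2. DESeq2 1.42.0, limma 3.58.1 voom, other scalings and filters, a replicate block and each library left out were alternatives; leaving out both libraries that stand apart and summing copies were added after seeing the data. Named members are the called ones, all Rnu, the 3 of highest CPM and the smallest p of each class, and the imprinted clusters. The members and lists were chosen with earlier results of these data known. Positions come from gencode vM39 of the same assembly, where all 45 members matched 1 gene. The fit was tested on simulated data. Some sequences and a host gene are not reported here. No pair of libraries held identical counts (0 pairs).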

Additional observations from a re-analysis of the deposited data

Results flagged for a closer look

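In groups of 4 libraries, a value was set aside for a closer look when its gap to the nearest other library took up more of the group's range than Dixon's 95% critical value. Of 100 groups examined, 11 passed, and chance gives about 1 in 20 (5 groups). WT male replicate 3 was the highest of its group in Rnu11 (0.936 of the range), Scarna2 (0.931), Snord15a (0.888), Snord13 (0.87), Scarna17 (0.837) and the summed CPM of the Scarna members (0.902). WT male replicate 4 was the lowest in Snord118 (0.857) and Snord17 (0.903). The others were Rnu2-10, lowest in KI female replicate 3 (0.863), Snora31, highest in KI male replicate 4 (0.859), and Snord43, highest in WT female replicate 1 (0.888). Rnu11 was called without WT male replicate 3, and Snord118 without WT male replicate 4.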

How the results depend on the processing

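The number of members called between the genotypes stayed at 6 under other scalings, DESeq2, limma voom, the stricter filter and no sex term. It was 7 of 89 with no filter, 6 lower and 1 higher, among them Snord73a and Snord90, which had failed the filter. It was 5 at an FDR below 0.05, 9 at an FDR below 0.1 alone and 5 without both libraries that stand apart. With 1 library left out it ran from 5 to 10 (10 without WT male replicate 3). In females it was 19 with no filter, of which 13 were higher, and 5 to 6 with 1 library left out. In males it was 14 with no filter, of which 13 were lower, and 4 with DESeq2. There it was 0 without both libraries that stand apart, and 0 to 5 with 1 library left out (5 without KI male replicate 3). In the interaction it was 10 with no filter, of which 9 were below 0, and 1 with DESeq2. Between the sexes it ran from 0 to 1, the 1 being without KI male replicate 4. Of the other small RNAs, 1 was called with no filter, limma voom, the replicate block or a term for replicates 1 and 2 against 3 and 4, and 0 to 3 with 1 library left out (3 without WT male replicate 3). The cause of these shifts was not tested. Summing near-identical copies turned Rnu1a1 to 0.18. With 1 library left out Scarna2 ran from -0.118 to 0.05, above 0 without WT male replicate 3, and Snord82 from -0.06 to 0.451, at -0.005, -0.008 and -0.06 without KI female replicate 1, WT female replicate 2 and KI female replicate 3. A prior count of 0.5 left 5 host pairs under 0.05, and the partner proteins stayed at 0 calls in all 28 settings.

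With the replicate number as a block 6 members were called. Deviations of same-numbered libraries correlated between -0.33 and 0.29, with 8 of 24 pairs above 0.1, so the numbers were not taken as pairs. Of 16 libraries 8 matched their own number best, and the share expected without pairing was not computed.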
